A study of Mus musculus with 18 samples.

Results

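The widest stretches of open chromatin in cultured mouse cortical neurons were examined, defined as intervals of 2000 bp or more in a consensus list of accessible regions. They were chosen by width alone, on chromosomes 1 to 19, and number 587 of the 211682 intervals in the list and of the 208005 on those chromosomes. They are set against the 16388 intervals of the same chromosomes that are at least 1000 bp but under 2000 bp wide, called the 1000 bp class below. The assay, ATAC-seq, uses the Tn5 transposase to insert adapters into open DNA, and a consensus interval is a stretch that the peak calls combined by the authors mark as open.

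The cells are primary cortical neurons of CD1 mouse embryos taken at E14.5-15 and kept in culture until day 11. All 18 samples share cytosine arabinoside at 2 µM, which stops dividing cells, and lentiviral shRNAs added on day 6. The groups are shControl with shAtf4 (3 samples), shOpa1 with shAtf4 (5), shOpa1 with shScrambled (5), and shControl with shScrambled (5). Opa1 encodes a mitochondrial GTPase that fuses inner membranes and shapes cristae, and Atf4 encodes the bZIP factor that carries out the integrated stress response. The study set Atf4 knockdown against its control in normal and in Opa1-depleted neurons. The list analysed here gives no values by sample or group, so no knockdown comparison was possible, no value has a replicate error, and the depth behind an interval is unknown. Intervals given below are exact (Clopper-Pearson) for shares and Newcombe intervals for differences, at 95%. They cover counting only, and intervals or genes of 1 list are not replicates of a condition.

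A promoter in use is kept free of nucleosomes around the transcription start, and most open promoters form a short accessible stretch. Many vertebrate promoters lie in CpG islands, which are GC-rich sequences where CpG dinucleotides have not been lost and which are largely unmethylated. Genes of development, signalling and neuronal identity are known for long CpG islands, and housekeeping genes for compact ones.

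Promoter sequences show the kinds of start that these wide intervals lie over. Each is the 300 bases from 250 before to 50 after an annotated start, from RefSeq (GRCm38.p6), printed 5′ to 3′ in the direction of the gene with every CpG in capitals. Adgrb2 encodes an adhesion G-protein-coupled receptor of the brain (plus strand, chr4:129984620-129984919), Dyrk2 a protein kinase (minus strand, chr10:118868854-118869153) and Slit2 a secreted axon guidance ligand (plus strand, chr5:47982905-47983204). They are shown as 3 of the widest intervals over a CpG-rich start. Tpbg encodes a membrane glycoprotein that inhibits Wnt signalling (plus strand, chr9:85842130-85842429) and Pgr the progesterone receptor (plus strand, chr9:8899583-8899882). They are shown because, of the genes with no CpG-rich start in such an interval, they lie under the widest.
Adgrb2: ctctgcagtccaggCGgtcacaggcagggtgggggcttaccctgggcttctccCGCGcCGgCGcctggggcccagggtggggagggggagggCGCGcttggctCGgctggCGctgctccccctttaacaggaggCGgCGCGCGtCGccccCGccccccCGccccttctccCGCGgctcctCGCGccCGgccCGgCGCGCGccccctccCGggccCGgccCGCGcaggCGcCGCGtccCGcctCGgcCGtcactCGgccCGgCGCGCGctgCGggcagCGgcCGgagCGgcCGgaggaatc
Dyrk2: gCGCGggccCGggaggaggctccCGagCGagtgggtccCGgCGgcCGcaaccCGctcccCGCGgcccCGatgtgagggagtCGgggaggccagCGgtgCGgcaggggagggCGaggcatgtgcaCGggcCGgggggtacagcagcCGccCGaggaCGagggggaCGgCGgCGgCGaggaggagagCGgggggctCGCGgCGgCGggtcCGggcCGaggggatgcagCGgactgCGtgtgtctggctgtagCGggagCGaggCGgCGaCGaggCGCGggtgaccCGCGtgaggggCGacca
Slit2: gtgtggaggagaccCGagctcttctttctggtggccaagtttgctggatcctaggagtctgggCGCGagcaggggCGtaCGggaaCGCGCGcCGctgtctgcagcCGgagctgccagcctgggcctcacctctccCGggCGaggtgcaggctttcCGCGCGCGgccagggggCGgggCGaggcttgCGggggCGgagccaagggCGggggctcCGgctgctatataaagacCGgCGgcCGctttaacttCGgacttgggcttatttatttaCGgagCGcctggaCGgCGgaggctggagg
Tpbg: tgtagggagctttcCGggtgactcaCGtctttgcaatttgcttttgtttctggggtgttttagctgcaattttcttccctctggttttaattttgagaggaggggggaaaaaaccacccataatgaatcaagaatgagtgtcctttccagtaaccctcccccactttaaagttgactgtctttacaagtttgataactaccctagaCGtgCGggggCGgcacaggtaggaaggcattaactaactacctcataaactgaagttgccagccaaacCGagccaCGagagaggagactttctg
Pgr: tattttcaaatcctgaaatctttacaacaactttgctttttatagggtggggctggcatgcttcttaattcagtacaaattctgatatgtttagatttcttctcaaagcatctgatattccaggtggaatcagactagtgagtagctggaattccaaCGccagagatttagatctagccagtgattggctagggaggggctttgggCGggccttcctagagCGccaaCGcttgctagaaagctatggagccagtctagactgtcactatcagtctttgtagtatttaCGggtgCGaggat

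The Adgrb2 window holds 45 CpG in 300 bases at 81.7% GC, the Dyrk2 window 44 at 79.0% and the Slit2 window 30 at 68.0%. The Tpbg window holds 7 at 46.0% GC and the Pgr window 6 at 43.7%. The Tpbg interval also holds a second Tpbg start nearer its midpoint, at 65.7% GC with a CpG ratio of 0.526. The ratio of CpG found to CpG expected from the counts of C and G is 0.902 at Adgrb2, 1.03 at Dyrk2 and 0.900 at Slit2, against 0.442 at Tpbg and 0.427 at Pgr. The widths, by which these examples were selected, were 3037 bp at Adgrb2, 2937 bp at Dyrk2, 2896 bp at Slit2, 2768 bp at Tpbg and 2719 bp at Pgr.

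The 587 intervals had a median width of 2186 bp, with quartiles of 2072.5 and 2348.5 bp, and 186 of them lay under 2100 bp. Only 64 reached 2500 bp and 9 reached 3000 bp, and the widest was 4410 bp. The deposited score is 1000 for all 587 and for all 16388 of the 1000 bp class, so it does not separate them. There is no gap at the threshold, since 245 intervals lay between 1900 and 2000 bp. The narrowest included were 3 of 2000 bp, at Zbtb4, Spred1 and Afg3l1, then 2001 bp at Bet1l and Ric8a and 2002 bp over an internal start of Nebl. Those just outside lay at ends of Asap2, Rnf19b and Camsap3 and over starts of Hspa12a and Sez6l.

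The widest of all lay on chromosome 17 from 39842965 to 39847374, over Rn18s-rs5, an annotated sequence related to the 18S ribosomal RNA. The nearest protein-coding end was that of Esp38, 105351 bp away, and 1 other interval lay within 50 kb of its midpoint. Ribosomal RNA genes exist in many near-identical copies, and how the authors treated reads that match several places is not stated in the labels or the file, so this interval is uncertain. The second, of 3467 bp on chromosome 10 from 80128922 to 80132388, lay over the converging finishes of Stk11, a kinase upstream of AMPK, and Cbarp, a regulator of calcium channels, with no listed start inside. The third, of 3332 bp, lay over an end of Tsc22d2 on chromosome 3, and the fourth, of 3171 bp, at Fzd8, a Wnt receptor. An interval of 3100 bp lay inside Zfp462, 4024 bp from its end. Intervals of 3037 and 3026 bp lay over the starts of Adgrb2 and of Dlgap4, which encodes a postsynaptic scaffold protein. An interval of 3006 bp lay over an internal start of Rreb1, a zinc finger factor downstream of Ras, 48161 bp from the outer end of the gene.

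Another 11 of the 20 widest run down to 2841 bp. They include the starts of Klhl29 (2975 bp), Dyrk2 (2937 bp), Klf12 (2929 bp), Slit2 (2896 bp), Igdcc4 (2863 bp) and Fbxl14 (2841 bp). Rims2, a scaffold of the presynaptic active zone, had 2925 bp at an end and Slc38a1, a glutamine transporter of neurons, had 2849 bp. An interval of 2886 bp lay 3531 bp from Stmn4 between genes, and one of 2851 bp on chromosome 10 spanned the ends of Fzr1, Mfsd12 and 4930404N11Rik. One of 2899 bp on chromosome 9 lay over the RNA gene Gm51701, 37591 bp from Ccr1, with no other interval within 50 kb. Transcription starts thus underlie many but not all of the widest stretches.

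The first question was how often these stretches lie at genes. A protein-coding gene has 2 outermost ends, and an end was counted when it lay within 1000 bp of an interval's midpoint, a window of the same size for wide and narrow intervals. An end lay there for 387 of the 587 intervals of 2000 bp or more (65.9%, 61.9 to 69.8%), against 7397 of the 16388 of the 1000 bp class (45.1%, 44.4 to 45.9%). The difference was 20.8 percentage points (16.8 to 24.6). The share was higher in the wide intervals on 19 of 19 chromosomes. With a window of 500 bp the difference turned round to -2.85 points (-6.70 to 1.18), with 35.8% of wide intervals and 38.6% of the 1000 bp class. It was 27.8 points when the end itself had to lie inside the interval, which a wider interval meets more easily by its width. Against intervals of at least 1500 bp but under 2000 bp, of which 61.9% had an end, the difference was 4.01 points (-0.30 to 8.15), an interval that includes 0.

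**Figure D1:**
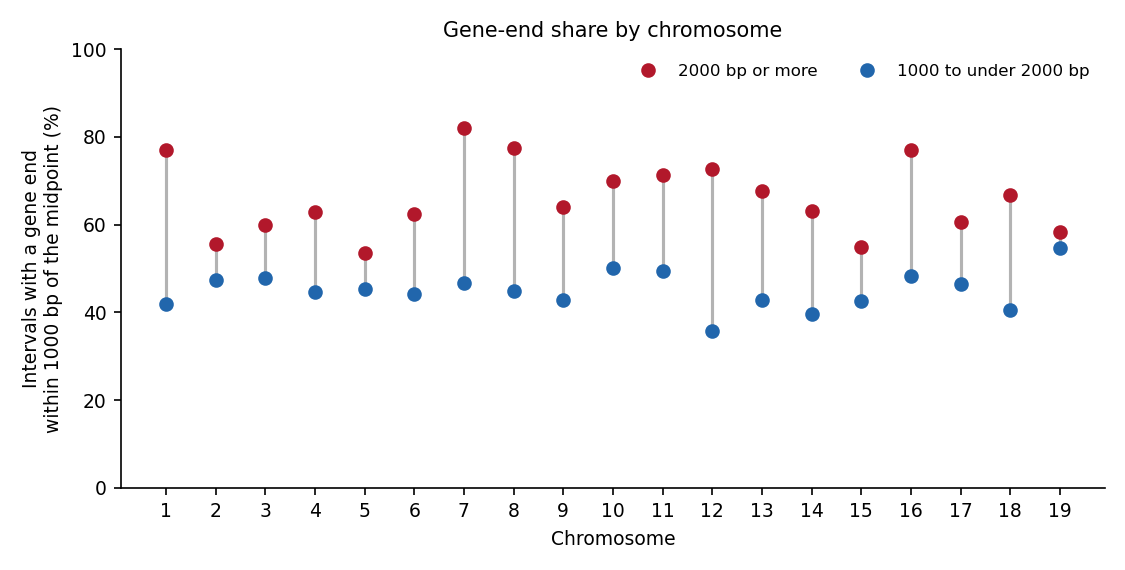
Share of intervals (%) with a protein-coding gene end within 1000 bp of the midpoint, by chromosome, for intervals of 2000 bp or more (red) and of 1000 to under 2000 bp (blue), joined by a grey line. The red point lies above the blue one on 19 of 19 chromosomes; a chromosome holds between 12 and 54 of the wide intervals.

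Where the direction of a gene is listed, starts can be told from finishes. Genes of chromosome 18 were not used for starts, which leaves 569 wide intervals and 15883 of the 1000 bp class. A start lay within 1000 bp of the midpoint of 362 of the 569 (63.6%, 59.5 to 67.6%), against 6749 of 15883 (42.5%, 41.7 to 43.3%), a difference of 21.1 points (17.0 to 25.1). The share was higher in the wide intervals on 17 of 18 chromosomes, the exception being chromosome 19 with 41.7% of 12 wide intervals against 52.7%. With a window of 500 bp the difference fell to 4.52 points (0.414 to 8.70), and against intervals of at least 1500 bp it was 4.65 points (0.215 to 8.92). Across widths, the share with a start was 33.4% for the narrowest of the 1000 bp class (8839 intervals) and 63.2% for its widest (835), then 63.5%, 66.0% and 58.1% in the 3 width steps from 2000 bp on (348, 159 and 62 intervals). Among the 3 steps from 2000 bp on, the intervals of these shares overlap one another and that of the step just below 2000 bp.

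**Figure D2:**
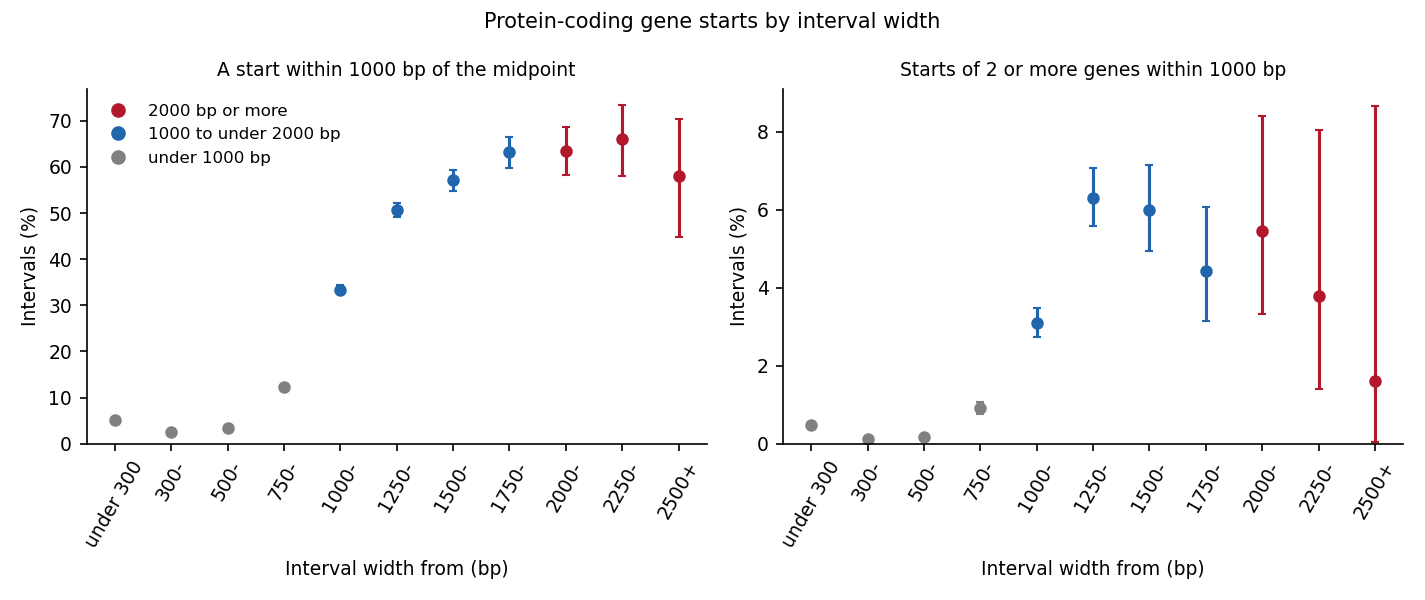
Share of intervals (%) with a protein-coding start (left) and with starts of 2 or more genes (right) within 1000 bp of the midpoint, by interval width in bp; each label gives the lower bound of a step, and bars are exact 95% intervals for counting. The left panel climbs through the 1000 bp class (blue) and is level from 2000 bp on (red, 63.5%, 66.0% and 58.1%), while the right panel shows shares of at most 6.30% with wide bars at 2000 bp and above.

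The midpoints of wide intervals lay further into the gene. Among intervals with a start, the midpoint was downstream of the nearest start for 267 of 362 wide intervals (73.8%, 68.9 to 78.2%), against 70.5% of the 1000 bp class (69.4 to 71.5%). The median midpoint lay 276.5 bp into the gene for wide intervals (quartiles -16 and 521.25 bp), against 95 bp (-20 and 235 bp). The median wide interval reached 1379 bp past the start and 835.5 bp before it, against 743 bp and 549 bp in the 1000 bp class. The reaches before and past a start inside an interval add up to its width, by which the intervals were chosen. Longer reaches in the wide class therefore follow from that choice and are no separate result. At the median, the reach past the start was the longer in both classes. The intervals of the shares with a downstream midpoint overlap. How the added width divides between the sides of the start was not tested.

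**Figure D3:**
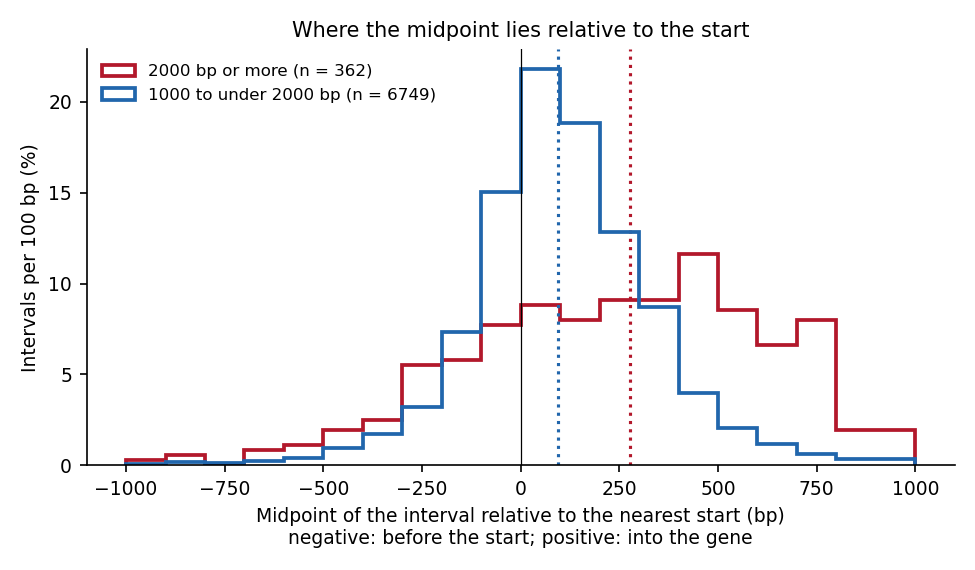
Position of the interval's midpoint relative to the nearest protein-coding start, in bp (positive values lie inside the gene), as the percentage of intervals per 100 bp for 362 intervals of 2000 bp or more (red) and 6749 of 1000 to under 2000 bp (blue); dotted lines mark the medians. The red distribution is broad with a median at 276.5 bp, and the blue one peaks close to the start with a median at 95 bp.

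Place was set by any base of the interval over a start or end, so a wider interval covers more of them by its width alone. The shares by place therefore depend on the width by which the intervals were chosen. By place, 368 of the 569 wide intervals lay over a start (64.7%, against 41.7% of the 1000 bp class), and 91 over a gene end whose direction is not listed (16.0% against 7.08%). Another 63 lay inside a protein-coding gene over no outer end or listed start (11.1% against 28.6%), 24 between genes (4.22% against 15.1%) and 13 at or in a gene of another type (2.28% against 6.58%). The midpoints of the 63 lay a median of 4024 bp from an outer end, the nearest at 1102 bp. Starts are not listed for every gene, so some of the 63 could lie over an unlisted start. The remaining 10 lay over a finish with no start (1.76% against 0.863%). Besides Stk11 with Cbarp, and Mfsd12 with Fzr1, these finishes were those of Dnajb2 with Ptprn, Actr1b, Pcif1 with Zfp335, Cacfd1 with Slc2a6, Anapc11, Prr7, Sars, and Ptpn23 with Scap. These 10 are named after their values were seen. The widths differed little by place, with medians of 2193 bp over starts, 2216 bp over finishes, 2181 bp inside genes and 2126.5 bp between genes.

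The second question was whether wide intervals join the ends of neighbouring genes. Ends of 2 or more protein-coding genes lay within 1000 bp of the midpoint for 34 of 587 wide intervals (5.79%, 4.04 to 8.0%), against 1113 of 16388 (6.79%, 6.41 to 7.19%). The difference was -0.999 points (-2.66 to 1.23), an interval that includes 0. It was -2.36 points (-3.42 to -0.714) with a window of 500 bp and -2.49 points (-4.43 to -0.0923) against intervals of at least 1500 bp, both intervals below 0. Starts of 2 or more genes lay there for 26 of 569 wide intervals (4.57%), against 695 of 15883 (4.38%), a difference of 0.194 points (-1.28 to 2.26). Starts on opposite strands lay inside 26 of 569 wide intervals (4.57%), against 4.09% of the 1000 bp class (difference 0.477 points, -0.990 to 2.54). When genes of any type were counted, 2 or more had ends at 109 wide intervals (18.6%), against 13.5%, a difference of 5.03 points (2.05 to 8.42). These shares are of all intervals, and wide ones more often had any end at all (71.6% against 50.7% for genes of any type). Of intervals with an end of any type, 109 of 420 wide ones had 2 or more, against 2218 of 8303. For protein-coding ends the counts were 34 of 387 against 1113 of 7397. Differences on this base were not tested. Long noncoding RNA genes had an end at 96 of the 587 (16.4%, 13.5 to 19.6%), against 10.2% (9.74 to 10.7%), a difference of 6.16 points (3.35 to 9.40).

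Of the 34 intervals with shared ends, 2 had ends of 3 genes, namely Fzr1, Mfsd12 and 4930404N11Rik (2851 bp) and Frs3, Prickle4 and Tomm6 (2060 bp). The widest with ends of 2 genes were those at Cbarp and Stk11 (3467 bp), Gm36722 and Tshz3 (2659 bp), Clcn2 and Polr2h (2495 bp), Sgsm2 and Tsr1 (2461 bp) and Gm40755 and Pawr (2416 bp). They were followed by Rdh10 and Rpl7 (2378 bp), Gm10840 and Limd2 (2369 bp) and Gm49894 and Zbtb14 (2365 bp). One of 2071 bp held the starts of Col4a1 and Col4a2, the chains of basement membrane collagen. This pair was singled out after its values were seen.

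The third question was what the starts share in sequence, which the choice by width did not use. A CpG-rich promoter was one with at least 50% GC and a CpG ratio of at least 0.6 in the 300 bases. Among intervals with a listed start within 1000 bp of the midpoint, 291 of 345 wide ones had a CpG-rich promoter (84.3%, 80.1 to 88.0%), against 5263 of 6580 of the 1000 bp class (80.0%, 79.0 to 80.9%). The difference was 4.36 points with a lower bound of 0.0475, and it reached 10.5 points (5.21 to 15.4) under a stricter limit of 55% GC and a ratio of 0.75. Its interval included 0 when the start had to lie inside the interval (2.96 points, -1.39 to 6.62) and against intervals of at least 1500 bp (1.71 points, -2.87 to 5.69). Over all 458 starts inside wide intervals, of 372 genes, median GC was 69.0% (quartiles 62.4 and 75.3%), against 64.0% (58.0 and 69.7%) for 8024 starts inside the 1000 bp class. It was 57.7% for starts under narrower intervals and 47.7% for starts with no interval. The median CpG ratio was 0.843 in the wide class, 0.812 in the 1000 bp class, 0.669 under narrower intervals and 0.194 with none. Among these classes, both measures were highest in the wide class and lowest at starts with no interval. By width step, medians were taken over intervals with a listed start within 1000 bp of the midpoint. The widest step of the 1000 bp class (835 intervals) had a median GC of 69.0% and a CpG ratio of 0.854. The steps from 2000 bp on had 69.3%, 70.8% and 74.7% GC and ratios of 0.841, 0.848 and 0.903. Only the widest of these steps had a higher ratio than the step just below 2000 bp.

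**Figure D4:**
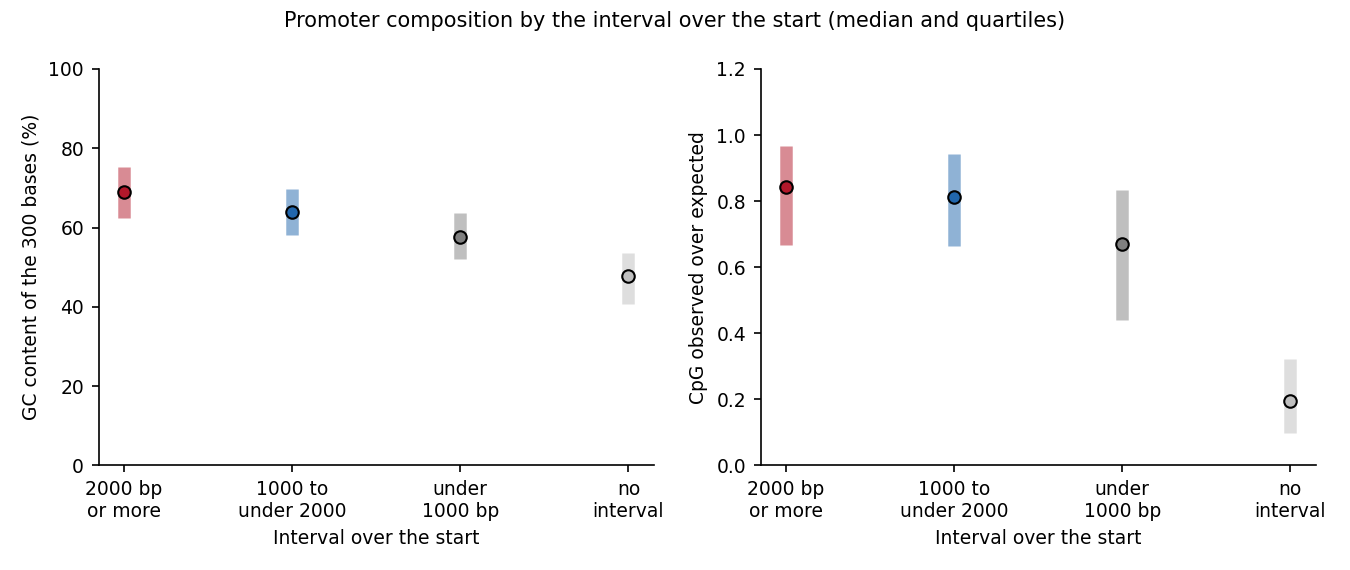
GC content (%) and ratio of observed to expected CpG of the 300 bases around protein-coding starts, by the widest interval that holds the start; points are medians and bars run between the quartiles. Median GC is 69.0% in intervals of 2000 bp or more, 64.0% in those of 1000 to under 2000 bp, 57.7% in narrower ones and 47.7% with no interval.

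Short motifs were counted in the same windows on both strands, and no motif's letters contain another's. The GC box GGGCGG, bound by Sp and Klf factors, was found at 77.7% of starts in wide intervals (73.6 to 81.5%), against 71.9% in the 1000 bp class (70.9 to 72.9%) and 47.0% of all listed starts. CCAAT, the site of NF-Y, was found at 26.0% (22.0 to 30.3%), against 36.4% (35.3 to 37.4%) and 38.1% of all. CGCATGCG, a core of the NRF1 site, was at 5 of 458 starts (1.09%, 0.355 to 2.53%), against 4.54% (4.09 to 5.01%) and 2.54% of all. TATAAA was at 3.71% against 5.31%, with 12.7% of all, and the intervals of the first 2 shares overlap. The CRE TGACGTCA was at 1.97% (0.902 to 3.70%), against 3.50% (3.11 to 3.93%) and 2.30% of all. TGATGNAA, a core of sites bound by Atf4 with C/EBP factors, was at 5 of 458 starts (1.09%, 0.355 to 2.53%), against 1.71% (1.44 to 2.02%) and 3.36% of all. TGANTCA, the AP-1 site, was at 3.49% (2.01 to 5.61%), against 3.69% (3.29 to 4.12%) and 7.06% of all. For the CRE, TGATGNAA and TGANTCA, the intervals of the wide and the 1000 bp class overlap. A match is a description of the letters in these windows and no site of binding. The 458 starts belong to 372 genes, and starts of 1 gene are not independent. The intervals count each start separately and may be too narrow. The windows differ in GC between the classes, as given above, and the part of that in the motif counts was not tested.

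Starts that are not CpG-rich were also present. Of the 458 starts in wide intervals, 376 were CpG-rich (82.1%), against 80.1% in the 1000 bp class and 4.91% of starts with no interval. No CpG-rich start was listed for 56 genes in wide intervals. The widest after Tpbg and Pgr were those of Jph4, which tethers neuronal membranes to internal calcium stores, at 2576 bp, Clcn2, a chloride channel, at 2495 bp, and Adra2c, an adrenergic receptor, at 2451 bp. These genes are named after their values were seen.

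Genes were then taken as the unit. Of 20558 protein-coding genes on chromosomes 1 to 19, 423 had an end within 1000 bp of the midpoint of a wide interval (2.06%), against 8290 for the 1000 bp class (40.3%). Of the 8686 genes with an interval of at least 1000 bp at an end, 4.87% had a wide one. The 423 genes were longer, with a median of 40.6 kb (quartiles 12.4 and 114 kb), against 25.1 kb for genes with an interval of the 1000 bp class only and 13.1 kb for genes with neither. Of those with a listed start, 24.5% had 2 or more starts (19.9 to 29.6%), against 19.3% (18.3 to 20.3%) and 13.7% (13.0 to 14.4%).

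Gene families were described by 54 lists, chosen with earlier results of these data known, as counts beside the 2.06% and the 4.87%. Signalling lists had 18 of 219 genes at a wide interval (8.22%, 4.94 to 12.7%), lists of cell surface and guidance genes 11 of 156 (7.05%), chromatin lists 11 of 182 (6.04%), and lists of the synapse and excitability 15 of 249 (6.02%). Transcription factor lists had 18 of 770 (2.34%), near the share of all genes. This pooled share does not hold for each list. Of the 770 genes, 386 are Zfp zinc finger genes with 3 at a wide interval (0.777%), and the other factor lists ran from 0 to 11.1%. Housekeeping lists had 4 of 340 (1.18%, 0.321 to 2.98%), an interval that includes the 2.06%, although 64.4% of their genes had an interval of the 1000 bp class at an end. Lists chosen from outside this tissue, such as olfactory receptors and keratins, had 0 of 1673 (up to 0.220%). Among genes with an interval of at least 1000 bp, the wide share was 13.8% for signalling, 15.5% for cell surface and 1.79% for housekeeping lists (0.491 to 4.53%), against the 4.87% of all. On this base the lists from outside the tissue had 0 of 25 (up to 13.7%), which includes the 4.87%.

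**Figure D5:**
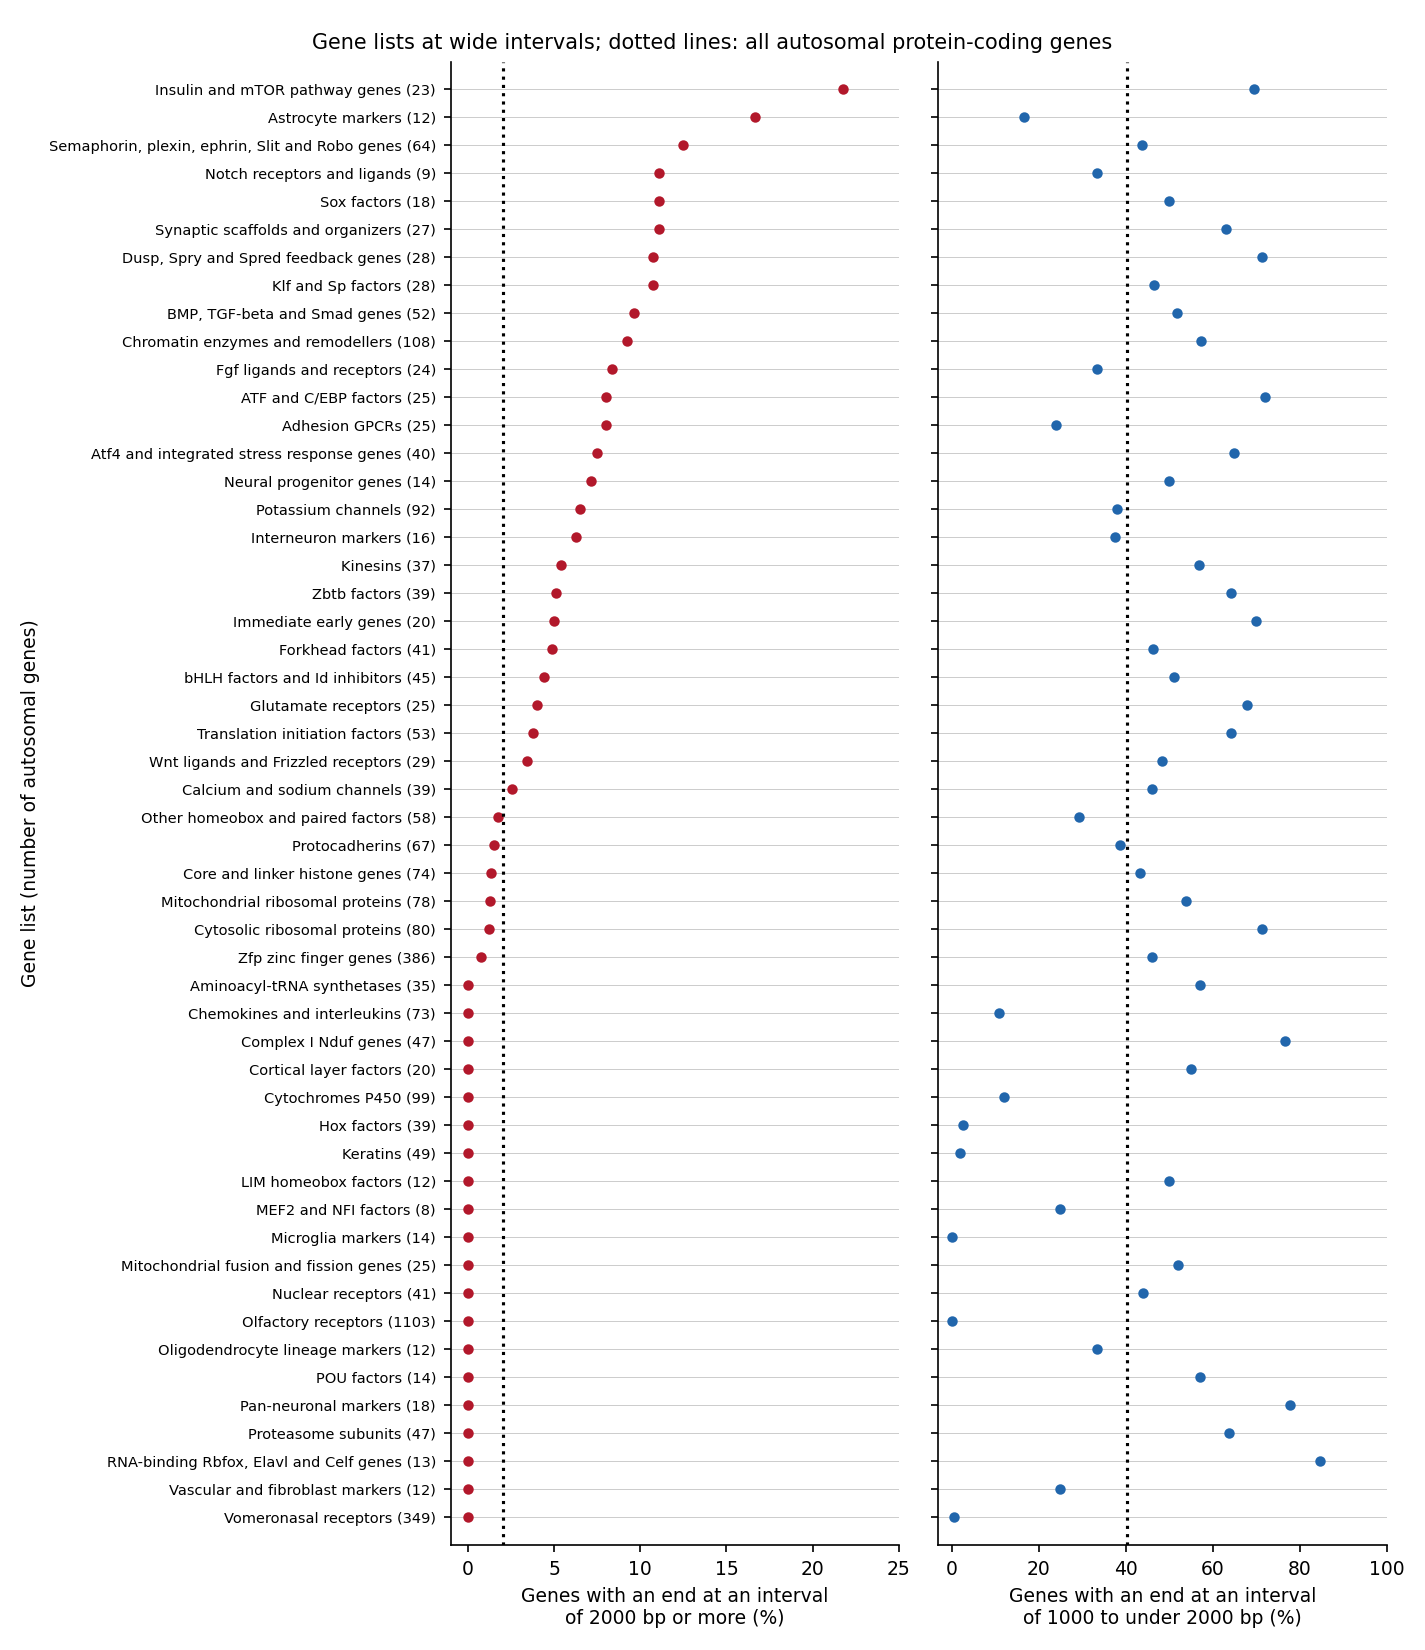
Share of genes (%) of lists of 8 or more genes with an end within 1000 bp of the midpoint of an interval of 2000 bp or more (left, red) and of 1000 to under 2000 bp (right, blue); the number of genes is in brackets and dotted lines mark 2.06% and 40.3% of all genes. Insulin and mTOR pathway genes stand at the top on the left with 5 of 23, and lists such as Complex I genes, at 0 on the left, stand at 76.6% on the right.

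Among signalling genes, those of the insulin and mTOR pathway, which couples growth factors to growth and metabolism, had 5 of 23 (21.7%). Among them were Stk11 (3467 bp, at its finish), Irs2, an insulin receptor substrate (2192 bp), Igf1r, the IGF-1 receptor (2176 bp), and Pik3r1, a regulatory subunit of PI3-kinase (2082 bp). The list also had 16 of 23 genes at intervals of the 1000 bp class (69.6%). BMP, TGF-beta and Smad genes had 5 of 52, the widest at the activin receptor Acvr2b (2289 bp), the ligand Gdf11 (2274 bp) and the BMP receptor Bmpr2 (2158 bp). Feedback inhibitors of the MAP kinase pathway had 3 of 28, at Dusp8 (2284 bp), Spred3 (2013 bp) and Spred1 (2000 bp). Fgf18 (2165 bp) and the receptor Fgfr3 (2031 bp) were 2 of 24 Fgf genes, and Fzd8 was 1 of 29 Wnt and Frizzled genes. The Notch ligand Jag2 (2041 bp) was 1 of 9 Notch receptors and ligands, and Dll1 had a start inside an interval of 2457 bp.

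Genes that guide axons had 8 of 64 (12.5%). The receptors were Plxna4 (2589 bp), Plxnc1 (2447 bp) and Plxnd1 (2093 bp) for semaphorins, Ephb2 (2362 bp) and Epha10 (2130 bp) for ephrins, and Unc5c (2026 bp) for netrin, and the ligands were Sema5b (2314 bp) and Efna5 (2054 bp). Slit2, printed above, and Sema4c (2075 bp) have a start inside a wide interval but no outer end within 1000 bp of its midpoint, and bring the count to 10. Adhesion G-protein-coupled receptors had 2 of 25, at Adgrb2 and at Adgrl2 (2356 bp), a receptor at synapses. Protocadherins had 1 of 67, at Pcdh1 (2387 bp).

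In the synapse lists, potassium channels had 6 of 92 (6.52%), the widest at Kcng3, a modifying subunit (2444 bp), Kcnd3, an A-type channel (2415 bp), and Kcna1, a channel of axons (2285 bp). Another 4 channel genes, Kcna2, Kcnip4, Kcnk13 and Kcnq5, had a start inside a wide interval without an outer end near its midpoint. Postsynaptic scaffolds and synaptic organizers had 3 of 27, all of the Dlgap family, at Dlgap4 (3026 bp), Dlgap3 (2243 bp) and Dlgap1 (2112 bp), and Shank3 (2620 bp) had an internal start in one. Glutamate receptors had 1 of 25, at Grm4 (2691 bp). Calcium and sodium channels had 1 of 39, at Cacng4 (2139 bp), and Scn8a had a start inside an interval of 2444 bp. Kinesins had 2 of 37, at Kif26b (2812 bp) and Kif2a (2011 bp). The RNA-binding Rbfox, Elavl and Celf genes had 0 of 13, with 11 of 13 at intervals of the 1000 bp class.

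Chromatin enzymes and remodellers had 10 of 108 (9.26%). The widest were at Arid1b, a subunit of the SWI/SNF remodeller (2431 bp), Chd4, the remodelling ATPase of NuRD (2328 bp), and Setd7, a lysine methyltransferase (2317 bp). Histone genes had 1 of 74, at the linker histone H1f10 (2122 bp).

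Counts for the transcription factor families follow, with all genes at 2.06%. Klf and Sp factors had 3 of 28, at Klf12 (2929 bp), Sp3 (2403 bp) and Klf3 (2007 bp), and Sox factors 2 of 18, at Sox11 (2236 bp) and Sox2 (2197 bp). Forkhead factors had 2 of 41, at Foxq1 (2384 bp) and Foxd2 (2255 bp), Zbtb factors 2 of 39, at Zbtb14 (2365 bp) and Zbtb4 (2000 bp), and bHLH factors 2 of 45, at Bhlhe22 (2096 bp) and Bhlhe40 (2048 bp). ATF and C/EBP factors had 2 of 25, at Cebpb (2303 bp) and Cebpd (2169 bp). Other homeobox and paired factors had 1 of 58, at Tshz3 (2659 bp). The large Zfp zinc finger group had 3 of 386 (0.777%), at Zfp704 (2377 bp), Zfp335 (2223 and 2147 bp, at its finish and its start) and Zfp651 (2207 bp), with 46.1% at intervals of the 1000 bp class. The lists of Hox (39 genes), LIM homeobox (12), POU (14) and nuclear receptor genes (41) had none. The nuclear receptor list did not include the progesterone receptor gene Pgr, which has a start inside an interval of 2719 bp. MEF2 and NFI genes had 0 of 8 by the midpoint. When a start or end inside a wide interval also counted, Nfib, Dlx1, Six4, Neurog2, Klf15, Zfp467 and Zfp777 were added. They bring the transcription factor lists from 18 to 25 genes.

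In the housekeeping families, cytosolic ribosomal proteins had 1 of 80, at Rpl7 (2378 bp), whose end is shared with Rdh10, and mitochondrial ribosomal proteins 1 of 78, at Mrpl40 (2194 bp), whose start is shared with Hira. Proteasome subunits and complex I Nduf genes had 0 of 47 each, with 63.8% and 76.6% at intervals of the 1000 bp class. Translation initiation factors had 2 of 53, at Eif4e, the cap-binding protein (2272 bp), and its inhibitor Eif4ebp1 (2013 bp). Aminoacyl-tRNA synthetases had 0 of 35 by the midpoint, while the finish of Sars lay inside an interval of 2066 bp.

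The 2 lists closest to the study's own question had 3 of 64 genes at wide intervals (4.69%, 0.977 to 13.1%), an interval that includes the 2.06% of all genes. Atf4 and integrated stress response genes had 3 of 40 (7.5%), namely Cebpb, a bZIP partner of Atf4, Vldlr, a lipoprotein receptor (2160 bp), and Eif4ebp1, with 26 of 40 at intervals of the 1000 bp class. An interval of 2009 bp lay 6553 bp from the end of Ddit4, an inhibitor of mTOR complex 1. Mitochondrial fusion and fission genes, Opa1 among them, had 0 of 25, with 13 of 25 at intervals of the 1000 bp class. Atf4 had no wide interval. Immediate early genes, which neurons switch on within minutes of activity, had 1 of 20, at Ier5 (2174 bp). Intervals between genes lay 1047 bp from Junb (2055 bp wide), 1137 bp from Nr4a1 (2100 bp) and 2829 bp from Egr3 (2383 bp), just outside the window or further.

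Lists of cell type markers had 4 of 118 genes at wide intervals (3.39%, 0.931 to 8.45%). Pan-neuronal markers had 0 of 18, although 14 of 18 had an interval of the 1000 bp class, so the ends of most genes that mark the labelled cell type were open at that width. Cortical layer factors had 0 of 20 by the midpoint and 11 of 20 at the 1000 bp class. A start of Tbr1, a factor of deep-layer neurons, lay inside an interval of 2112 bp. Interneuron markers had Reln, a secreted guide of migrating neurons (2135 bp), as 1 of 16, Dlx1 had a start inside an interval of 2431 bp, and one of 2051 bp lay inside Sp8, 2799 bp from its end. The progenitor gene list had Sox2 as 1 of 14. Astrocyte markers had Atp1b2 (2103 bp) and Fgfr3 as 2 of 12, with 2 more at the 1000 bp class, while Gfap, Aqp4 and Aldh1l1 had neither. Microglia markers had 0 of 14 in both classes, and the oligodendrocyte and vascular lists had 0 of 12 each at wide intervals, with 4 and 3 at the 1000 bp class.

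Symbol roots shared by 10 or more genes numbered 269, of which 179 had no gene at a wide interval, 60 had 1 and 30 had 2 or more. The highest shares were those of Adcy (Adcy5 and Adcy8 of 10), Arid (Arid1b and Arid3a of 10) and Gdf (Gdf1 and Gdf11 of 10). Then came Mgat (Mgat3 and Mgat4b of 11), Galnt (Galnt13, Galnt16 and Galnt7 of 17), Prdm (Prdm15 and Prdm6 of 14) and Prr (Prr16, Prr3 and Prr7 of 23). Klf (Klf12 and Klf3 of 16), Sox (of 18) and Tspan (Tspan17 and Tspan18 of 18) completed the top 10. These counts of 2 or 3 genes are a description.

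The neighbourhood of wide intervals was close to that of the 1000 bp class. The gap to the nearest other interval had a median of 2647 bp (quartiles 241 and 6211.5 bp), against 2597.5 bp (289 and 6320 bp) in the 1000 bp class. A median of 2 other intervals lay within 10 kb of the midpoint in both classes, and of 13 within 50 kb in both. The nearest protein-coding end was 688 bp from the midpoint at the median (quartiles 380 and 1537 bp), against 2014.5 bp (227 and 30638.5 bp). At most 1 other interval lay within 50 kb of 7 wide intervals (1.19%), against 1.13% of the 1000 bp class. They include Slc6a15, Pde3b, Pgr and Unc5c, named after their values were seen.

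A pair of wide intervals lay within 50 kb of each other in 9 cases. The closest midpoints were 7419 bp apart at Prr7, 7715 bp apart at Mllt10 and 7849 bp apart at Camk2n2 and Ece2. No gene had more than 2 wide intervals in it or within 10 kb, and 13 had 2, among them Arid1b (2431 and 2202 bp), Atp2b2, a calcium pump (2528 and 2138 bp), Bach2 (2159 and 2049 bp), Dbn1, the actin-binding drebrin of dendritic spines (2135 and 2078 bp), Dscaml1 (2158 and 2010 bp) and Kalrn, a spine regulator (2275 and 2271 bp). In Dbn1 and Prr7 the same 2 intervals are counted, since the genes are neighbours.

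The wide intervals farthest from an outer gene end lay inside genes or between them. The farthest was inside Pde4d, a cAMP phosphodiesterase, 462804 bp from its end (chromosome 13, 109115902 to 109118061). The next lay between genes 374282 bp from Tox3 (chromosome 8, 89871749 to 89873908). An interval of 2366 bp lay over an internal start of Asic2, an acid-sensing channel, 272932 bp from its end, so that the distance to an outer end does not show a distance from a start. Intervals between genes lay 247120 bp from Myt1l and 242592 bp from Sec61b. Small RNA genes had an end inside 6 wide intervals, namely the hairpins Mir5130 (in Kctd12), Mir7655 (in Mllt10), Mir1895 (in Cxxc4), Mir1956 (at Eif4e) and Mir7045 (at Chd4), and the tRNA genes n-TPagg2 and n-TPcgg2 in a single interval.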

How the data were processed

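ATAC-seq of 18 samples in 4 groups gave the 1 deposited file used here, a consensus list of intervals (mm10). The authors' columns are positions, a name and a deposited score, which reaches a ceiling of 1000. The score was used only as an alternative filter. Peak names carry MSPC, a program that combines peak calls, per the file. MACS2, MultiQC, deepTools and mm10 are named in the submitters' processing notes. Not given in the sources used here are the aligner, any Tn5 shift, the handling of duplicate and multiply mapped reads, thresholds, how overlapping calls were merged and the samples behind the consensus. Whether a wide interval was 1 wide peak in each culture or a union of narrower ones was not tested.

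Planned tests of the knockdowns were not possible without values per sample. No depth is given, so precision beyond counting is unknown. Widths are end minus start, and positions are printed from 1. RefSeq (GRCm38.p6, the same assembly as mm10) gave the outermost ends of protein-coding genes, with 348 genes on scaffolds left out. Promoter windows from RefSeq list starts for 16457 of 20558 autosomal protein-coding genes and for 318 of the 423 genes at wide intervals. A start is a listed one, or the 5′ outermost end of a gene of listed strand. Shares have exact Clopper-Pearson 95% intervals and differences Newcombe intervals, with no p-values. The code was tested on simulated placements. Tools were statsmodels 0.14.6, scipy 1.17.1, pandas 2.3.3, matplotlib 3.10.9 and numpy 2.4.6 in Python 3.11.15.

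The wide intervals, gene lists and comparisons were chosen with earlier results of these data known. Genes named are the 20 widest intervals, 5 on either side of the threshold, up to 3 per list by width, intervals with the most gene ends, genes with the most intervals, the 5 farthest intervals, all of the stress, immediate early and marker lists, and the top 10 symbol roots. A few genes that qualify are not reported here. More than 3 are named for the insulin and guidance lists, chosen after their values were seen, as were genes counted by a start or end inside an interval. Alternatives were windows of 500 and 2500 bp, an end inside the interval, wide intervals of at least 2500 bp, a comparison from 1500 bp, the score, genes of any type, genes that do not overlap, a stricter CpG limit and scaffold genes. Chromosomes 1 to 10 and 11 to 19 alone were added after the data were seen.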

Additional observations from a re-analysis of the deposited data

Results flagged for a closer look

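Outside chromosomes 1 to 19, which the report does not use otherwise, 22 intervals of 2000 bp or more lay on chromosome X, 1 on Y and 3 on the mitochondrial chromosome M. They are flagged only because they lie outside the main measurement. Their share of all intervals on those chromosomes is not given here, so the counts do not show more or fewer wide intervals than on chromosomes 1 to 19. The widest on X lay at Slc6a8, the creatine transporter (2559 bp), followed by Dlg3, a synaptic scaffold (2439 bp), Irs4, an insulin receptor substrate (2406 bp), and Slitrk4, a synaptic adhesion protein (2405 bp). Syp, the synaptic vesicle protein synaptophysin, had 2184 bp and L1cam, a neural adhesion molecule, 2053 bp.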

How the results depend on the processing

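Of the difference in gene-end share, 20.8 points, the sign turned round with a window of 500 bp (-2.85) and the size moved to 29.6 with 2500 bp, 27.8 with an end inside the interval, 6.43 for wide intervals of at least 2500 bp (-5.58 to 18.3) and 4.01 against intervals from 1500 bp. It was 20.9 with genes of any type. The start share difference of 21.1 points moved to 4.52 (500 bp), 15.6 (at least 2500 bp wide) and 4.65 (from 1500 bp). The difference in ends of 2 or more genes, -0.999 points, moved to 1.57 with 2500 bp and 5.03 with genes of any type, and was -2.36 with 500 bp and -2.49 from 1500 bp, both with intervals below 0. The CpG-rich difference of 4.36 points moved to 14.0 for intervals of at least 2500 bp and 10.5 under the stricter limit, and its interval included 0 with a start inside the interval (2.96) and against intervals from 1500 bp (1.71). The share of genes at a wide interval, 2.06%, moved to 1.09% (500 bp), 2.68% (2500 bp) and 0.180% (at least 2500 bp wide). A window of 500 bp covers only the middle of an interval of 2000 bp or more. The setting with an end or start inside the interval is met more easily by a wider interval. The cause of the changes between settings, the turned sign included, was not tested. Restricting to score 1000 changed nothing, as all have it, and chromosomes 1 to 10 or 11 to 19 alone kept the direction of the 4 differences above (20.4 and 21.4 points for gene ends), with intervals of the CpG-rich difference that include 0. No paired analysis was possible because the list has no columns of samples. Unknown depth, starts not used for some genes and the unstated merging of calls limit all values.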
